A study of Mus musculus with 31 samples.

Results

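Genes of fatty acid synthesis and desaturation were followed through 3 RNA-sequencing experiments on Panc02 cells, a mouse pancreatic adenocarcinoma line. The members were taken by symbol, the 10 genes Acly, Acss2, Acaca, Fasn, Scd1, Scd2, Elovl5, Elovl6, Fads1 and Fads2, out of 60172 genes listed in at least 1 of the 3 count tables. Each symbol had 1 row per table, and all 10 members passed the filter on low counts in all 3 tables.

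The series held 31 libraries. In the conditioned medium experiment, Panc02 spheroids in Matrigel received control medium (Ctrl), medium conditioned by unstimulated macrophages (M0-CM) or medium conditioned by macrophages given IFNγ and LPS (M1-CM), with 3 libraries per group. By the paper's methods, conditioned media were collected in medium with L929 cell supernatant, which is not listed for the control medium. Ctrl therefore differs from both in that too. In the dimension experiment, wild-type (WT) cells and cells with a CRISPR deletion of the chemokine gene Cxcl5 (Cxcl5-/-) were grown flat (2D) or as spheroids in Matrigel (3D), with 3 libraries in each of the 4 groups. In the overexpression experiment all cells were grown in 3D: WT (2 libraries), Cxcl5-/- (2 libraries), Cxcl5-/- cells carrying a retroviral stabilized Hif1α mutant (3 libraries) and Cxcl5-/- cells carrying retroviral Myc (3 libraries). The cell line labels of the overexpression samples carry other numbers after Panc, while the methods name Panc02. The sources used here do not state whether the Cxcl5-/- cells are a single clone or a pool, so that line and genotype cannot be told apart, and the labels do not say whether libraries of a group came from separate cultures, so p-values measure only the spread between libraries.

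Fatty acid synthesis starts from cytosolic acetyl-CoA, which ATP citrate lyase (Acly) makes from citrate and acyl-CoA synthetase short chain family member 2 (Acss2) makes from acetate. Acetyl-CoA carboxylase (Acaca) turns it into malonyl-CoA and fatty acid synthase (Fasn) builds palmitate from both. Elongases (Elovl6 for saturated and monounsaturated chains, Elovl5 for polyunsaturated chains) lengthen the product, stearoyl-CoA desaturases (Scd1, Scd2) put in the first double bond, and the delta-5 and delta-6 desaturases (Fads1, Fads2) act on polyunsaturated chains. Many of these genes are known targets of the SREBP transcription factors, and tumour cells are known to draw on acetate when oxygen is short.

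The promoter windows of 7 of the 10 members were in the RefSeq table of GRCm38.p6, which spans 250 bases before to 50 after each gene start. Scd1, Scd2 and Fads1 were not matched. The stretches before any annotated exon are shown for the 4 matched members whose genotype difference changed between 3D and 2D, with capitals marking matches to CCAAT (the NF-Y box), CACGTG (the E-box) or ACGTG (the core of the hypoxia response element, which every CACGTG also contains), on either strand. They lie at chr2:155517793-155517947 on the plus strand (Acss2), chr11:100528001-100528250 on the minus strand (Acly), chr9:77917115-77917363 on the plus strand (Elovl5) and chr3:129532136-129532256 on the plus strand (Elovl6), each written 5′ to 3′.
Acss2: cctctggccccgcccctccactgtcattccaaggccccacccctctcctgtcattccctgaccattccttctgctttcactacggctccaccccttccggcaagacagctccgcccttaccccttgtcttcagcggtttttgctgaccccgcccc
Acly: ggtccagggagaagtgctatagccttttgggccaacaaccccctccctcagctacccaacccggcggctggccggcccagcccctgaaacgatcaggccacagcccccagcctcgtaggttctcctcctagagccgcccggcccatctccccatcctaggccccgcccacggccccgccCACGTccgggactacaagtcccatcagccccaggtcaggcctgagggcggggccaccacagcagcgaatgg
Elovl5: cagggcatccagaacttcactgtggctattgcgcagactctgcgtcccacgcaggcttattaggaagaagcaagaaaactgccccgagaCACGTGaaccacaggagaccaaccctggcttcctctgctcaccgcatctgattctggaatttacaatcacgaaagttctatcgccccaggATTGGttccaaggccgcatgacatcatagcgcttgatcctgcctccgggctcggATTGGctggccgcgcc
Elovl6: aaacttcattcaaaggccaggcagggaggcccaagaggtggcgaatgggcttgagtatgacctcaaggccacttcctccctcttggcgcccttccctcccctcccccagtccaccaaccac
CCAAT was in 37.4%, ACGTG in 19.6% and CACGTG in 7.15% of the 32817 mouse promoter windows of the same 300 bases. Over the whole windows, the Elovl5 promoter held 2 CCAAT matches and 1 CACGTG, the Acly promoter 1 CCAAT and 1 ACGTG, the Acss2 promoter 1 CCAAT and the Elovl6 promoter 1 ACGTG, some of them past the stretches printed. The longer sterol-response letters TCACNCCAC, in 1.24% of all windows, matched none of the 7 members' windows. These matches describe letters in a window and do not show binding.

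Library totals ran from 41542533 to 78498230 estimated counts. In the overexpression experiment they were 41542533 to 43890492 for WT and Cxcl5-/- and 51419869 to 64872036 with Hif1α or Myc. The sample titles of WT and Cxcl5-/- there also carry a prefix that those of the transgene groups lack. No line with an empty vector is among the samples. Transgene, vector and set of libraries therefore cannot be told apart. Genes with at least 10 counts numbered 27353 and 27506 in the WT libraries of the overexpression experiment and 19732 to 21560 in the other 8 libraries beside them, so these 2 libraries stood apart. Without either of them the genotype comparison there called 8 members in place of 9, and no fit without both exists. Cxcl5 itself stood at 24.5 to 28.5 CPM (read counts relative to library size, scaled by edgeR's TMM) in 3D WT and at 40.9 to 65.5 in the spheroids labelled Cxcl5-/-, which goes against the label as a transcript level (log2 difference 0.91, adjusted p = 0.000173), while in the overexpression experiment it fell from 64.2 and 67.7 to 36.6 and 40.2 (adjusted p = 0.00107). A transcript count does not read the edit itself. The paper checked the knockout at the protein level, by immunoblot for CXCL5, and shows such a blot for 3D cultures. Myc reached 397 to 548 CPM with retroviral Myc against 20.02 and 22.3 without it, and Hif1a reached 243 to 296 CPM with the Hif1α mutant against 134 and 144 CPM without it. Hif1a was also at 241 to 271 CPM with Myc, where it was 1.86-fold higher than in Cxcl5-/- and did not differ by the test from the Hif1α group (log2 difference -0.04, adjusted p = 0.826), and the WT libraries held 304 and 324 CPM. The epithelial markers Epcam and Cdh1 were at 0.61 CPM or less in every library while Krt8 and Krt18 were at 33.3 CPM or more, and the macrophage markers Adgre1 and Itgam and the adipocyte markers Adipoq and Cidec were at 0.72 CPM or less. Other genes of these lists were detected: Cd14 reached 52.98 CPM, Lyz2 16.73 CPM, Cd68 11.15 CPM and Fabp4 34.32 CPM. In bulk RNA, fewer cells of a type and less RNA per cell cannot be told apart. The summed markers moved with some groups: the 6 fibroblast and mesenchymal markers, mostly Vim, came to 3675 to 4223 CPM in 3D WT and 1071 to 1223 in the spheroids labelled Cxcl5-/-, and the 10 epithelial ones to 871 to 1120 and 264.5 to 283.4 CPM. The 5 adipocyte markers, mostly Fabp4, came to 13.3 to 19.4 CPM in 3D WT, to 0.364 to 1.47 CPM in the spheroids labelled Cxcl5-/- and to 0.906 to 1.25 CPM in 2D WT. In the overexpression experiment they came to 10.1 and 16.2 CPM in WT, 1.62 and 2.01 CPM in Cxcl5-/-, 0.777 to 2.47 CPM with Hif1α and 26.3 to 34.7 CPM with Myc. The 7 macrophage markers came to 42.2 to 46.5 CPM in 3D WT and 43.3 to 63.2 CPM in the spheroids labelled Cxcl5-/-, and among them Lyz2 was 4.30-fold higher in the latter. The part of these markers in the results was not tested.

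WT spheroids were first compared with flat WT cultures. Acss2 rose 17.1-fold, Scd1 4.31-fold, Acly 1.93-fold, Scd2 1.92-fold and Fads1 1.71-fold, while Fasn, Elovl5, Elovl6 and Fads2 did not pass the test and Acaca was slightly lower. In all, 6 of 10 members passed an adjusted p under 0.05, 5 higher and 1 lower in 3D, against 44.3% of the 21367 genes tested (22.2% higher and 22% lower), so the share called was near the background. The median log2 difference was 0.52 over the members and 0.00 over all genes. The groups did not overlap in 54.3% of all genes tested, nor in 5 higher and 2 lower members.

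The acetyl-CoA suppliers both rose. Acss2 stood at 29.0, 25.3 and 29.2 CPM in flat WT cultures and at 517, 441 and 473 CPM in 3D WT. The lowest spheroid library was far above the highest flat one (log2 difference 4.10 ± 0.11 SE, adjusted p = 3.16e-11). Acly stood at 297, 285 and 294 CPM in 2D WT and at 639.8, 494 and 555 CPM in 3D WT, again without overlap (log2 difference 0.95 ± 0.09 SE, adjusted p = 2.04e-06).

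The chain-building enzymes did not follow the suppliers. Acaca, which commits acetyl-CoA to fatty acid synthesis, was at 185, 209 and 184 CPM in 2D WT and at 171, 157 and 163 CPM in 3D WT. The spheroid libraries were all below the flat ones by a small margin (log2 difference -0.23 ± 0.08 SE, adjusted p = 0.0308), a call that was lost when any of 5 of the 6 libraries was left out and in DESeq2. Fasn was at 421, 378 and 405 CPM in 2D WT and at 489.8, 354 and 419 CPM in 3D WT, and the groups overlapped (log2 difference 0.07 ± 0.11 SE, adjusted p = 0.659, and of opposite sign when scaled by library totals).

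Among the desaturases, Scd1 changed most. Scd1 stood at 33.1, 34.8 and 31.8 CPM in 2D WT and at 152, 136 and 142 CPM in 3D WT (log2 difference 2.11 ± 0.08 SE, adjusted p = 4.9e-10). Its paralog Scd2, the more abundant of the pair also per length, went from 2950, 3151 and 2857 CPM to 6373, 4993 and 5809 CPM (log2 difference 0.94 ± 0.10 SE, adjusted p = 5.92e-06). Neither gene had overlapping groups. Fads1, the delta-5 desaturase, went from 164, 155 and 169 CPM to 289, 255 and 290.0 CPM (log2 difference 0.77 ± 0.08 SE, adjusted p = 2.98e-06).

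The remaining 3 members moved little between the WT groups. Fads2, the delta-6 desaturase, encoded next to Fads1 on chromosome 19, overlapped between the groups (log2 difference 0.26 ± 0.10 SE, adjusted p = 0.0593). It passed the threshold when 3D WT replicate 2 was left out and in DESeq2. Elovl6 was at 82.0 to 82.5 CPM in 2D WT and at 74.7 to 78.7 CPM in 3D WT (log2 difference -0.10 ± 0.07 SE, adjusted p = 0.313). Elovl5 was at 98.8 to 108 CPM and 92.4 to 116 CPM (log2 difference -0.01 ± 0.09 SE, adjusted p = 0.972), with a sign that turned with the scaling.

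**Figure D1:**
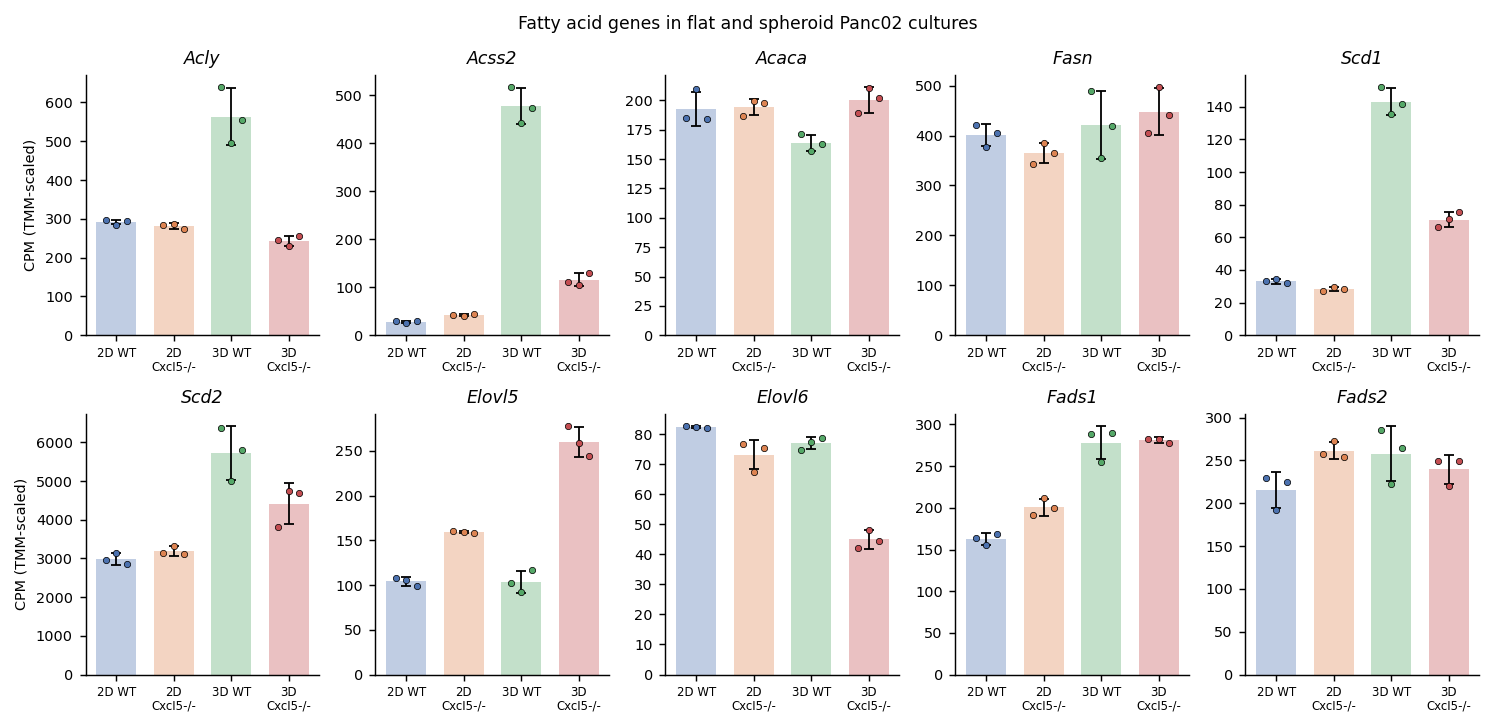
CPM of the 10 members in the dimension experiment, 1 panel per gene, with points for the 3 libraries, bars for the mean and error bars for the SD, each axis starting at 0. Acss2 and Scd1 stood highest in 3D WT, at 441 to 517 and 136 to 152 CPM, and Elovl5 stood highest in the spheroids labelled Cxcl5-/-, at 244 to 278 CPM.

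The second question was how spheroids labelled Cxcl5-/- differed from WT spheroids in these genes. Acss2 was 4.15-fold, Acly 2.31-fold, Scd1 2.02-fold and Elovl6 1.71-fold lower in the spheroids labelled Cxcl5-/- than in 3D WT, while Elovl5 was 2.51-fold higher. Of the 10 members 7 were called, 2 higher and 5 lower, against 45% of all genes (19.7% higher and 25.3% lower). The members' median log2 difference was -0.24 and that of all genes -0.04. The groups did not overlap in 54.4% of all genes tested, nor in 2 higher and 5 lower members. Scaling by library totals moved the median of all genes to 0.35 and the members' calls to 5 higher and 4 lower, where the TMM factors were 0.82 to 0.91 in 3D WT and 1.01 to 1.23 in the spheroids labelled Cxcl5-/-. The share of all genes called under library totals is not given here. Small differences in this contrast depend on the scaling.

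Acss2 stood at 111, 104 and 130 CPM in the spheroids labelled Cxcl5-/-, below each 3D WT library (log2 difference -2.05 ± 0.10 SE, adjusted p = 6.4e-09). Acly stood at 244, 229.6 and 256 CPM, also without overlap (log2 difference -1.21 ± 0.09 SE, adjusted p = 2.79e-07). Acss2 there lay between the 2D WT and 3D WT levels, and Acly lay below both. Scd1, at 66.3, 71.0 and 75.5 CPM, lay below each 3D WT library and above each flat one (log2 difference against 3D WT -1.01 ± 0.08 SE, adjusted p = 2.43e-07).

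Elovl5 and Elovl6 went opposite ways. Elovl5, which lengthens polyunsaturated chains, stood at 278, 258 and 244 CPM in the spheroids labelled Cxcl5-/- against 102, 92.4 and 116 CPM in 3D WT (log2 difference 1.33 ± 0.09 SE, adjusted p = 1.07e-07). Elovl6, which lengthens palmitate to stearate, stood at 42.2, 48.1 and 44.5 CPM against 74.7, 77.5 and 78.7 CPM (log2 difference -0.78 ± 0.07 SE, adjusted p = 2.21e-06). In both genes the groups were fully apart.

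Scd2 was lower, at 3812, 4756 and 4688 CPM in the spheroids labelled Cxcl5-/- (log2 difference -0.37 ± 0.10 SE, adjusted p = 0.00908), but it came to 0.03 when scaled by library totals. Its call was kept in 5 of 8 alternatives. Acaca was higher, at 189, 211 and 202 CPM (log2 difference 0.29 ± 0.08 SE, adjusted p = 0.00967). Fasn at 404 to 497 CPM, Fads1 at 277 to 283 CPM and Fads2 at 219.9 to 249.6 CPM overlapped with 3D WT and did not pass the test (adjusted p 0.438 to 0.886). Under library totals all 3 came out higher and past the threshold.

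In 2D the same genotype contrast was smaller for most members. In all 7.03% of genes were called there (3.86% higher and 3.17% lower), and 3 of 10 members were, all higher in Cxcl5-/-. Elovl5 was at 160.2, 159.5 and 159 CPM in 2D Cxcl5-/- against 108, 105 and 98.8 CPM in 2D WT (log2 difference 0.62 ± 0.09 SE, adjusted p = 0.000663). Acss2 was at 41.5, 40.0 and 43.4 CPM, above each 2D WT library (log2 difference 0.58 ± 0.10 SE, adjusted p = 0.00231). Fads1 was at 192, 212 and 199.6 CPM (log2 difference 0.30 ± 0.08 SE, adjusted p = 0.0319), a call lost in 5 of 6 fits that left out 1 library. Acly, Acaca, Fasn and Scd2 overlapped between the genotypes in 2D. Of all genes tested, 26.1% did not overlap there.

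Whether both genotype differences were unequal was tested as an interaction. Acss2 was higher in 2D and lower in 3D, and its difference in 3D minus that in 2D was -2.63 ± 0.14 SE (log2, adjusted p = 1.05e-07). The same difference was -1.16 for Acly, -0.79 for Scd1, -0.61 for Elovl6 and -0.47 for Scd2, and it was 0.71 for Elovl5, whose higher level in Cxcl5-/- cells was thus larger in 3D (adjusted p 3.56e-05 to 0.028). Called were 6 of 10 members against 27.2% of all genes (11.1% higher and 16.1% lower). The calls of Acss2, Acly and Elovl5 were kept under every setting tried other than a limit on the size of the fold, and those of Scd1, Scd2 and Elovl6 were lost under library totals. The Scd2 call was the least firm, kept in 4 of 7 alternatives and in 10 of 12 fits that left out 1 library.

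In Cxcl5-/- cells the move from 2D to 3D still raised some members. Acss2 was 2.76-fold and Scd1 2.49-fold higher in the spheroids labelled Cxcl5-/- than in 2D Cxcl5-/- (adjusted p = 4.92e-08 and 1.14e-08), and Elovl5, Scd2, Fads1 and Fasn were 1.23-fold to 1.63-fold higher, the Fasn call being lost in 5 of 6 fits that left out 1 library. Elovl6 was 1.63-fold lower (adjusted p = 2.75e-06). Acly, at 229.6 to 256 CPM, did not differ by the test from its 273 to 287 CPM in 2D Cxcl5-/- (log2 difference -0.21 ± 0.09 SE, adjusted p = 0.0695), although all 3 spheroid libraries were the lower ones. In all 7 of 10 members were called, 6 higher and 1 lower, against 57% of all genes (28.7% higher and 28.2% lower). The groups did not overlap in 64.8% of all genes tested, nor in 6 higher and 3 lower members. These 4 contrasts share their groups and are not independent of each other.

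**Figure D2:**
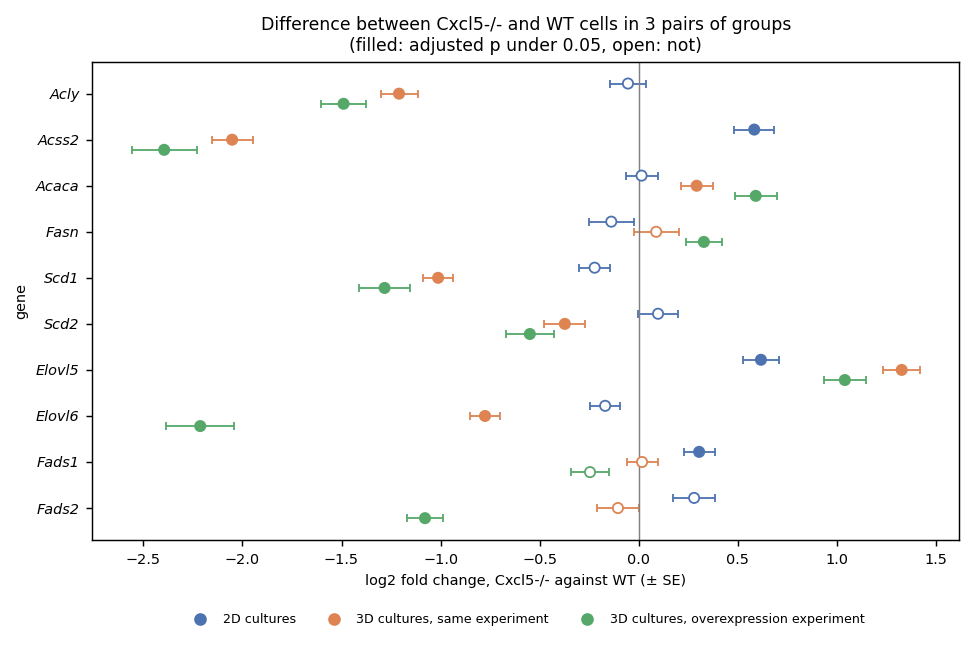
Log2 fold change of Cxcl5-/- against WT with its SE for each member, in 2D, in 3D of the same experiment and in the overexpression experiment, filled where the adjusted p was under 0.05. Acss2, Acly, Scd1 and Elovl6 lie left of 0 in both 3D pairs and Elovl5 lies right of 0 in all 3 pairs, while Scd2 in the first 3D pair comes to 0.03 under scaling by library totals.

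The overexpression experiment measured the genotype contrast in 3D again in other libraries. Between Cxcl5-/- and WT, 9 of 10 members were called, 3 higher and 6 lower, against 41.9% of all genes (17.6% higher and 24.3% lower). The median log2 difference of all genes was -0.30 here, and the groups did not overlap in 80.9% of the 28730 genes tested. Acss2 was at 38.5 and 35.8 CPM in Cxcl5-/- and at 207 and 184 CPM in WT (log2 difference -2.40 ± 0.16 SE, adjusted p = 1.14e-06). Acly was at 126 and 131 CPM against 352 and 369.5 CPM (log2 difference -1.49 ± 0.11 SE, adjusted p = 2.22e-06). Each Cxcl5-/- library lay below both WT libraries for these genes and for Scd1, at 36.2 and 35.4 CPM against 86.8 and 87.4 CPM.

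Elovl6 and Fads2 were also lower. Elovl6 was at 11.8 and 10.5 CPM in Cxcl5-/- and at 49.3 and 54.1 CPM in WT (log2 difference -2.21 ± 0.17 SE, adjusted p = 2.74e-06), and Fads2 was at 129 and 131 CPM against 279 and 271 CPM (log2 difference -1.08 ± 0.09 SE, adjusted p = 5.17e-06). The corresponding log2 differences in the dimension experiment were -0.78 and -0.11, and the gap between the experiments was not tested because their tables were fitted separately. Elovl5 was higher at 176 and 170.1 CPM against 82.4 and 86.0 CPM (log2 difference 1.04 ± 0.10 SE, adjusted p = 1.78e-05), and so were Acaca (0.59 ± 0.10 SE) and, less firmly, Fasn (0.33 ± 0.09 SE). Across both experiments, which share no library, 9 of 10 members had the same sign of the 3D genotype difference, compared with 76.5% of the 21058 genes tested in both.

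With the stabilized Hif1α mutant, 9 of 10 members were called higher than in Cxcl5-/- cells without it, against 35.5% of all genes called (20.5% higher and 15% lower). Under scaling by library totals 5 of these members passed, all higher, and the share of all genes called under that scaling is not given here. Elovl6 rose 5.89-fold to 77.6, 55.05 and 64.5 CPM (adjusted p = 9.87e-07). Acly rose 2.63-fold to 377, 317 and 318 CPM (adjusted p = 2.65e-06), close to the 352 and 369.5 CPM of WT. Acss2 rose 2.20-fold to 94.8, 79.3 and 71.3 CPM, Fads2 2.14-fold and Scd1 1.83-fold. The calls of Elovl6, Acly, Acss2 and Fads2 were kept in every alternative, that of Scd1 in all but the limit on the fold, and Acaca was the member that did not pass (log2 difference -0.04 ± 0.10 SE, adjusted p = 0.78).

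With Myc the members moved less evenly, 5 higher and 1 lower against 39.6% of all genes called (21.6% higher and 18% lower). When scaled by library totals 2 members were higher and 2 lower, again without a share of all genes given for that scaling. Elovl6 rose 4.27-fold to 42.4, 45.2 and 55.2 CPM (adjusted p = 2.14e-06) and Fads2 2.02-fold to 268, 249 and 271 CPM (adjusted p = 3.54e-06). Acly rose 1.61-fold to 197, 197 and 226 CPM and Acss2 1.52-fold to 51.2, 51.3 and 67.0 CPM. Elovl5 instead fell 1.39-fold, to 120.2, 120.1 and 133 CPM (adjusted p = 0.00165). Scd1, at 35.7, 40.6 and 43.3 CPM, overlapped with the 36.2 and 35.4 CPM of Cxcl5-/- (log2 difference 0.16 ± 0.12 SE, adjusted p = 0.304). Both overexpression contrasts share the same 2 Cxcl5-/- libraries.

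Set directly against each other, 6 members were lower with Myc than with the Hif1α mutant and none was higher, against 19.3% of all genes called (9.54% higher and 9.73% lower). The differences were -0.82 ± 0.08 SE for Elovl5, -0.72 ± 0.10 SE for Scd1, -0.71 ± 0.09 SE for Acly, -0.53 ± 0.13 SE for Acss2, -0.46 ± 0.13 SE for Elovl6 and -0.31 ± 0.07 SE for Fasn (log2, adjusted p 4.75e-05 to 0.0297). The calls of Elovl5, Scd1 and Acly were kept in every alternative but the limit on the fold, which left 0 members, and without replicate 1 of the Hif1α group these were the 3 that remained. Fads1 and Fads2 overlapped between both overexpression groups.

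Relative to WT spheroids, the return differed from gene to gene. With the Hif1α mutant, 5 of 10 members differed from WT (24.2% of all genes, 13.9% higher and 10.3% lower), and with Myc 8 of 10 did (31.8% of all genes, 17.1% higher and 14.7% lower). Leaving out 1 library gave 4 to 7 members for Hif1α and 5 to 7 for Myc. The Myc calls of Scd2 and Fads1 were each kept in 1 of 5 such fits and that of Fasn in 3. The Hif1α call of Scd1 was kept in 2 of 5. Acly did not differ from WT by the test with Hif1α (log2 difference -0.10 ± 0.10 SE, adjusted p = 0.512) and stayed below it with Myc (-0.80 ± 0.10 SE, adjusted p = 0.000132). Acss2 stayed below WT with both, by -1.26 ± 0.14 SE and -1.79 ± 0.14 SE. Elovl6 and Fads2 did not pass the test against WT with either one, with log2 differences from -0.12 to 0.35. Fads2 with Myc was called lower under 3 of 8 alternatives (log2 difference down to -0.36), the sign of Fads2 with Hif1α turned with the scaling, and Elovl6 with Hif1α passed when replicate 2 of that group was left out. Elovl5 was above WT with both, by 1.38 ± 0.10 SE with Hif1α and 0.56 ± 0.10 SE with Myc. A difference that missed the threshold does not show equal levels.

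**Figure D3:**
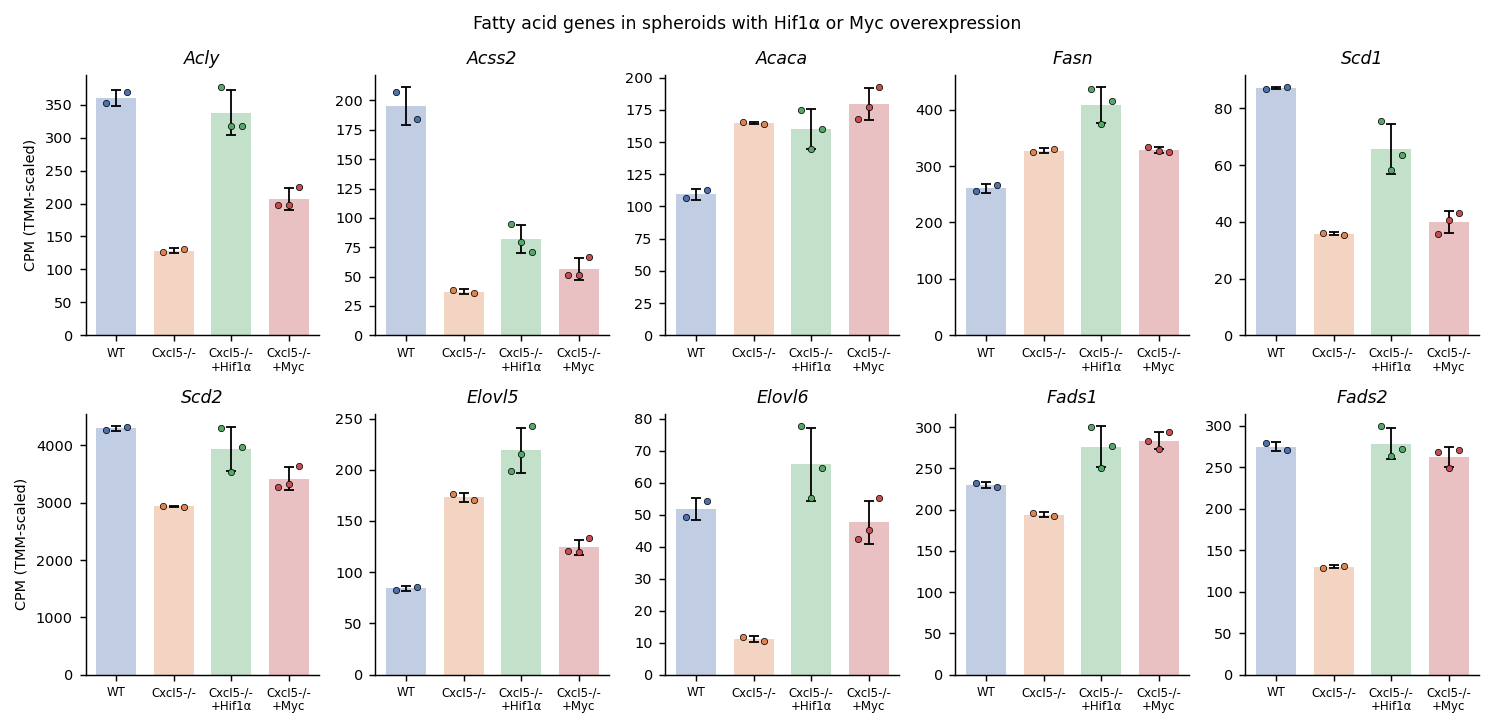
CPM of the 10 members in the overexpression experiment, with points for the 2 or 3 libraries, bars for the mean and error bars for the SD, each axis starting at 0. Elovl6 stood at 10.5 to 11.8 CPM in Cxcl5-/- and at 42.4 CPM or more in the other 3 groups, and Acss2 stood highest in WT.

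Scd1 and Scd2 encode enzymes of the same reaction and both lie on chromosome 19 (GRCm38, chr19:44394455-44407879 on the minus strand and chr19:44293674-44306864 on the plus strand). How reads common to both were shared out is not given in the sources used here. Scd1 made up 1.10% ± 0.00923 (SD, n = 3) of the counts of both genes in 2D WT and 2.45% ± 0.168 in 3D WT, and 0.883% ± 0.0215 in 2D Cxcl5-/- and 1.59% ± 0.119 in the spheroids labelled Cxcl5-/-. No library of 1 group reached into another. Each difference gave p = 0.1 in an exact two-sided permutation test, the smallest p that 3 against 3 libraries can give. In the overexpression experiment the share was 1.99% and 1.98% in WT, 1.22% and 1.19% in Cxcl5-/-, 1.57% to 1.72% with Hif1α and 1.08% to 1.21% with Myc. Scd2 held the rest of the pair in every library.

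**Figure D4:**
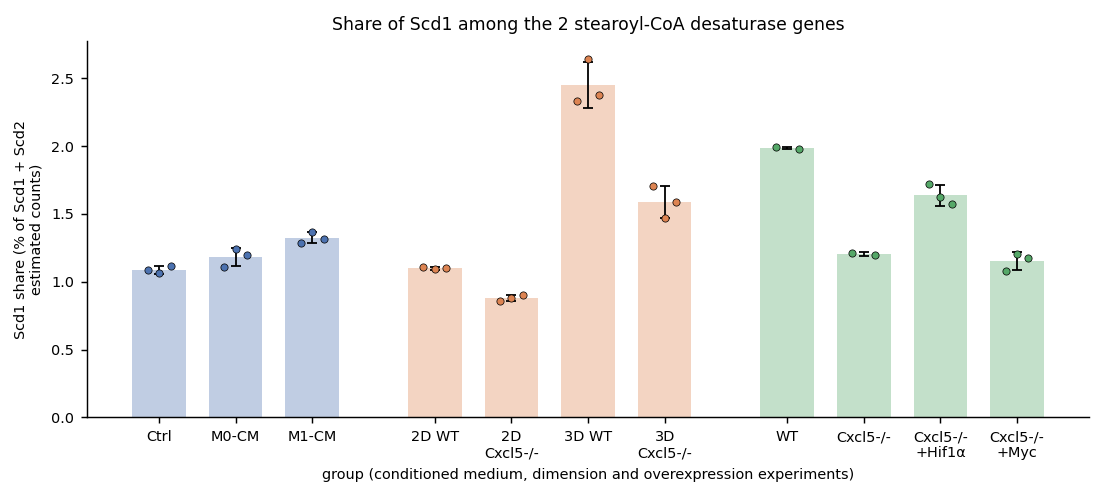
Share of Scd1 in the summed estimated counts of Scd1 and Scd2, in percent, for each library of the 11 groups, with bars for the mean and error bars for the SD, the axis starting at 0. The highest shares were those of 3D WT, at 2.33% to 2.65%, and the lowest those of 2D Cxcl5-/-, at 0.862% to 0.905%.

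Conditioned medium was compared last. No member passed an adjusted p under 0.05 in edgeR for M1-CM against Ctrl, M1-CM against M0-CM or M0-CM against Ctrl, where 0.0156%, 0.0156% and 0% of 19207 genes were called, and DESeq2 called none of the members either. At an unadjusted p under 0.05 there was 1 member for M1-CM against Ctrl, 0 for M1-CM against M0-CM and 2 for M0-CM against Ctrl, where 903, 498 and 569 of all genes were. Cxcl5 itself stood at 662 to 719 CPM with M1-CM against 78.0 to 117 CPM in Ctrl, so the table does call a difference of that size (adjusted p = 0.000474).

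The members furthest from Ctrl were Acss2 with M0-CM and Scd1 with M1-CM. Acss2 was at 238, 121 and 242 CPM in the Ctrl spheroids. M0-CM gave 317, 445 and 398 CPM, and M1-CM gave 272, 189 and 365 CPM (log2 difference of M0-CM against Ctrl 0.95 ± 0.31 SE, adjusted p = 1). All M0-CM libraries lay above all Ctrl libraries, and the M1-CM libraries overlapped with both. Scd1 was at 37.3, 22.4 and 24.2 CPM in the Ctrl spheroids. M0-CM gave 39.7, 43.6 and 36.4 CPM, and M1-CM gave 41.1, 54.5 and 41.8 CPM (log2 difference of M1-CM against Ctrl 0.71 ± 0.21 SE, adjusted p = 0.889). The M1-CM libraries were all above Ctrl. Of all genes tested, 8.35% did not overlap between M0-CM and Ctrl and 8.49% between M1-CM and Ctrl, against 1 and 2 members. The Scd1 share was 1.09% ± 0.0258 in Ctrl, 1.18% ± 0.0685 for M0-CM and 1.32% ± 0.0403 for M1-CM (SD, n = 3 each), and the exact permutation test of M1-CM against each of the other groups gave its smallest p, 0.1.

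**Figure D5:**
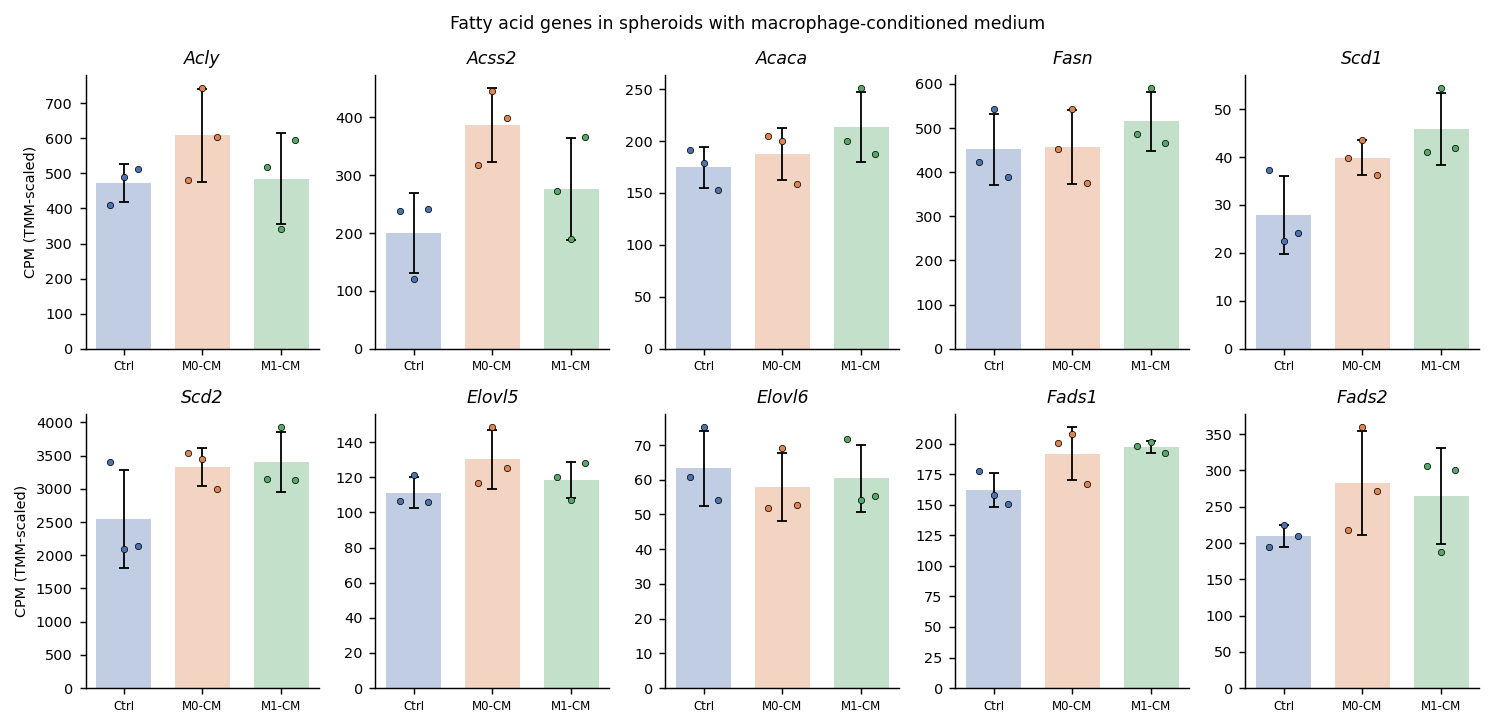
CPM of the 10 members in spheroids given control, M0-conditioned or M1-conditioned medium, with points for the 3 libraries, bars for the mean and error bars for the SD, each axis starting at 0. Groups overlapped in most panels, and the Ctrl libraries of Acss2 ranged from 121 to 242 CPM.

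Per length of merged exons, the order of the members' levels in 2D WT was led by Scd2 at 546.5 ± 27.5 CPM per kb (SD, n = 3), followed by Fads2 at 65.4 ± 6.34, Acly at 55.3 ± 1.19, Fasn at 36.6 ± 1.99, Fads1 at 33.8 ± 1.43 and Elovl5 at 29.5 ± 1.37. Elovl6 at 12.8 ± 0.0408, Acaca at 11.3 ± 0.851, Scd1 at 6.79 ± 0.307 and Acss2 at 2.74 ± 0.217 closed it. Of the neighbours in this order, Fasn and Fads1 did not differ beyond their SDs. In 3D WT Acss2 stood at 46.9 ± 3.73 CPM per kb, above Fasn at 38.5 ± 6.19 and Acaca at 9.60 ± 0.414, so it went from the last place to the fifth, behind Scd2 at 1048 ± 127, Acly at 107 ± 13.8, Fads2 at 78.2 ± 9.74 and Fads1 at 57.8 ± 4.13. Acss2 and Fasn did not differ beyond their SDs in 3D WT. The length used merges all annotated exons of a gene, 10163 bases for Acss2, and can exceed that of any single transcript. Places in this order depend on that choice and could change with transcript lengths. Exons of Acss2 overlap those of Gss, Ggt7 and the antisense gene Acss2os on the opposite strand over 3.89%, 1.94% and 3.3% of its exon length.

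The genes around the members were counted by list. Among 14 genes that control the pathway (SREBP factors, their escorts and retention proteins, and the LXR and ChREBP families), 4 of 13 tested rose and 4 fell in 3D WT against 2D WT. Insig2 and Insig1, which hold SREBP in the endoplasmic reticulum, rose 2.78-fold and 1.64-fold (adjusted p = 2.78e-08 and 1.2e-05), and both were lower in the spheroids labelled Cxcl5-/- than in 3D WT, 2.16-fold and 2.28-fold. Srebf2, the SREBP gene of the sterol branch, rose 1.64-fold in 3D WT (adjusted p = 0.00582) and Srebf1, that of the fatty acid branch, did not pass there. In the overexpression experiment Srebf1 was 1.23-fold higher in Cxcl5-/- than in WT (adjusted p = 0.03), while Insig1 was 3.77-fold lower and rose again 3.18-fold with Hif1α and 2.83-fold with Myc.

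Genes listed for the supply of citrate carbon and NADPH moved partly with the members. The list also holds Acacb and Aacs, which supply neither, so its counts are not those of suppliers alone. In 3D WT against 2D WT 5 of 8 tested rose and 3 fell, and in the spheroids labelled Cxcl5-/- against 3D WT 1 rose and 5 fell. Slc25a1, the mitochondrial citrate carrier that feeds Acly, rose 2.75-fold in 3D WT (adjusted p = 7.2e-07) and was 2.37-fold lower in the spheroids labelled Cxcl5-/- (adjusted p = 3.86e-06). Acacb, the mitochondrial acetyl-CoA carboxylase, rose 12.3-fold in 3D WT and 15.7-fold in the spheroids labelled Cxcl5-/- against the respective 2D group.

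The other elongation and desaturation genes counted 5 higher and 2 lower of 12 tested in 3D WT against 2D WT, and 1 higher and 5 lower in the spheroids labelled Cxcl5-/- against 3D WT. Elovl7 rose 5.69-fold and Tecr, the reductase of the last elongation step, 1.87-fold in 3D WT (adjusted p = 3.95e-07 and 5.4e-05). Of 16 tested genes of glycerolipid synthesis and lipid droplets, 6 rose and 3 fell in 3D WT, led by the phosphatidate phosphatase Lpin1 at 7.35-fold and the lipid droplet protein gene Hilpda at 6.92-fold (adjusted p = 1.66e-10 and 1.26e-08). In the spheroids labelled Cxcl5-/- 2 were higher and 7 lower than in 3D WT, Lpin1 2.72-fold and Hilpda 3.30-fold lower. Of the 5 sterol genes all rose in 3D WT and all were lower in the spheroids labelled Cxcl5-/-, with Sqle 3.24-fold higher in the first contrast.

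Fatty acid oxidation was mixed, with 4 higher and 4 lower of 18 tested in 3D WT against 2D WT and 4 higher and 3 lower in the spheroids labelled Cxcl5-/- against 3D WT. With Myc, 12 of the 18 rose and 3 fell against Cxcl5-/-, a contrast that called 39.6% of all genes (21.6% higher and 18% lower). Among them were Eci1 at 2.98-fold higher and Cpt1a, the carnitine palmitoyltransferase of the outer membrane, at 1.83-fold lower (adjusted p = 5.53e-07 and 4.57e-06). Of the 6 tested genes of mitochondrial fatty acid synthesis, a separate pathway, 1 rose and 3 fell in 3D WT, including Mecr at 1.79-fold lower (adjusted p = 2.4e-05). Of 10 tested acyl-CoA synthetase and uptake genes, 5 rose in 3D WT, including Acsl3 at 1.91-fold and Slc27a1 at 1.99-fold. The counts for 3D WT against 2D WT and for the 3D genotype contrast stand beside the 44.3% and 45% of all genes called there.

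Likeness across the 12 libraries of the dimension experiment, given as Pearson's r of log2 CPM against 97 other pathway genes and members, is a description, since the libraries fall into 4 groups. Scd1 was most like Lpin1 (r = 1.00), Acss2 most like Sqle (r = 0.99), Fads1 most like Dgat2 (r = 0.97) and Scd2 most like Nr1h2 (r = 0.96). Elovl5 was most like Slc25a20 (r = 0.93) and least like Elovl6 (r = -0.92), which in turn was most like Gpat3 (r = 0.92). Acaca, Fads2 and Fasn had weaker partners, Oxsm (r = 0.84), Eci1 (r = 0.81) and Fads6 (r = 0.72). Over all 31 libraries, centred within each table, the genes outside the members whose levels followed the members' mean most closely among 9387 were Lss (r = 0.85), Selenbp1 (r = 0.83), Adipor2 (r = 0.82), Mmab (r = 0.80) and Tm7sf2 (r = 0.79).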

How the data were processed

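Stranded total RNA libraries (TruSeq) of 31 samples (Panc02 by the methods) were sequenced, aligned to GRCm38 with HISAT2 and quantified with StringTie by the authors. The values deposited are estimated counts per gene, as whole numbers, in 3 tables. Annotation release and the step from StringTie to counts are not given in the sources used here. Each table was fitted on its own with all its groups in edgeR 4.0.16 (R 4.3.3, filterByExpr, TMM, quasi-likelihood test), p-values were adjusted by Benjamini-Hochberg over all genes tested, and a call is an adjusted p under 0.05. CPM are on TMM-scaled library sizes. The Scd1 share was tested by exact permutation (scipy 1.17.1). The scripts were tested on simulated counts.

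Members and gene lists were chosen with earlier results of these data known. All 10 members are named. From each other list, up to 2 called genes per comparison could be named, those with the smallest adjusted p and a mean CPM of at least 1, and any gene of the control list. Alternatives were DESeq2 1.42.0, its size factors, library totals, other filters, a replicate block, the compared groups alone, a fold limit and leaving out each library. Promoter sequences are from RefSeq (GRCm38.p6). Some results that the naming rule would give are not reported here.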

Additional observations from a re-analysis of the deposited data

Results flagged for a closer look

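For 6 members the difference between cells labelled Cxcl5-/- and WT differed between 3D and 2D by the interaction term of the fit (edgeR, adjusted p under 0.05). The difference in 3D minus that in 2D, on the log2 scale, was -2.63 for Acss2, -1.16 for Acly, -0.79 for Scd1, -0.47 for Scd2, 0.71 for Elovl5 and -0.61 for Elovl6. No group had the 4 to 10 samples needed for a test of single outlying libraries.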

How the results depend on the processing

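Of 140 member comparisons 72 were called, and 48 of these calls were kept in every alternative, a limit on the fold aside. The shares of all genes called under the alternatives are not given here. Member counts under them therefore have no background beside them. Requiring an absolute log2 difference above 1 left 2 members called for 3D against 2D in WT and in Cxcl5-/-, 0 for genotype in 2D, 4 for genotype in 3D, 2 for the interaction, 4 for Hif1α and 2 for Myc against Cxcl5-/-, 0 for Myc against Hif1α, and 2 for Hif1α and 2 for Myc against WT. Scaling by library totals left 5 for Hif1α and 4 for Myc against Cxcl5-/-. It turned the log2 difference to -0.043 for Fasn (M0-CM against Ctrl), -0.15 for Fasn (3D against 2D, WT), 0.022 for Fads2 (3D against 2D, Cxcl5-/-), 0.28 for Fads2 and 0.030 for Scd2 (genotype, 3D), 0.084 for Fads1 (interaction), -0.33, -0.21, -0.18 and -0.12 for Fasn, Acaca, Scd1 and Scd2 (Myc against Cxcl5-/-), -0.082 for Fads1 (Myc against Hif1α) and -0.16 for Fads2 (Hif1α against WT). In DESeq2, with its size factors and with at least 10 counts in every sample, the signs also turned for Elovl5 (3D against 2D, WT: 0.065, 0.065 and 0.027, and 0.028 with the compared groups alone), Fasn (Myc against Cxcl5-/-: -0.023, -0.023 and -0.065) and Fads2 (Hif1α against WT: -0.12, -0.12 and -0.137). Apart from Fads2 and Fasn under library totals (adjusted p = 0.0264 for genotype in 3D and 0.0373 for Myc), and Scd2 in 3D, no turned value was a call on either side. The cause was not tested.

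Leaving out each library gave 5 to 6 members called for 3D against 2D in WT, 6 to 7 in Cxcl5-/-, 2 to 3 and 7 to 7 for genotype in 2D and 3D, 5 to 8 for the interaction, 8 for genotype in the overexpression experiment, 6 to 9 for Hif1α and 5 to 6 for Myc against Cxcl5-/-, 3 to 7 for Myc against Hif1α (3 without Hif1α replicate 1), 4 to 7 for Hif1α and 5 to 7 for Myc against WT (5 without WT replicate 1 or 2), and 0 for conditioned medium. Signs turned within these ranges of the log2 difference, none of them a call: for M1-CM against Ctrl, Acly -0.136 to 0.238 and Elovl6 -0.212 to 0.082; for M0-CM against Ctrl, Fasn -0.126 to 0.158; for M1-CM against M0-CM, Fads2 -0.254 to 0.114, Elovl6 -0.080 to 0.209, Fads1 -0.052 to 0.101 and Scd2 -0.082 to 0.085; for 3D against 2D in WT, Fasn -0.031 to 0.205 and Elovl5 -0.073 to 0.096; for genotype in 3D, Fasn -0.050 to 0.186 and Fads1 -0.069 to 0.050; for Hif1α against Cxcl5-/-, Acaca -0.109 to 0.032; for Myc against Cxcl5-/-, Fasn -0.0032 to 0.029; for Hif1α against WT, Fads2 -0.039 to 0.046; for Myc against Hif1α, Fads1 -0.027 to 0.1004.

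The labels do not say whether replicate numbers pair the samples. Same-numbered samples correlated on average by 0.072, 0.040 and 0.014 in the conditioned medium, dimension and overexpression experiments. Differently numbered ones correlated by -0.032, -0.020 and -0.0074. These means do not decide whether samples were paired. With the replicate number as a block, 7, 6, 3, 7 and 7 members were called in the dimension experiment (3D against 2D in WT and in Cxcl5-/-, genotype in 2D and 3D, interaction), 9, 9, 6, 6, 5 and 8 in the overexpression experiment and 0 with conditioned medium.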

Other observations

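Fabp5, a fatty acid binding protein of the uptake list, was at 0 estimated counts in all 8 Cxcl5-/- libraries without a transgene, against 305 to 373 counts in 2D WT, 550 to 800 in 3D WT and 59 in each WT library of the overexpression experiment. With the Hif1α mutant it was at 0 to 17 counts and with Myc at 0 to 7.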
